A study of Homo sapiens with 9 samples.

Results

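Metalloproteinase inhibitors, the membrane proteinases they restrain and the urokinase system of plasminogen activation were followed here through 9 genes named by symbol. They are the inhibitors TIMP1, TIMP2 and TIMP3, the membrane-type matrix metalloproteinases MMP14 and MMP15, the sheddases ADAM10 and ADAM17, and urokinase PLAU with its receptor PLAUR. All 9 are among the 19257 genes of the deposited table, 8 had at least 1 count, and those 8 passed the filter on low counts that kept 12574 genes. RNA from 9 samples labelled A549, a lung adenocarcinoma line, was sequenced in 3 groups of 3. OGT-KO (genotype label OGT knockout) and TR11B-KO (TR11B knockout) were given a Lenti-CRISPR-V2 plasmid against their target, and NC (genotype label WT) was given the empty plasmid. OGT encodes the enzyme that attaches O-GlcNAc sugars to proteins inside the cell, and TR11B was taken to be TNFRSF11B, osteoprotegerin, a secreted decoy receptor of the TNF receptor family. All groups were grown in DMEM with serum and antibiotics. Each knockout has 1 guide-like name in its column headers, and the sources used here do not say whether its cells were a clone or a pool.

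TIMPs are small secreted proteins that sit in the active site of matrix metalloproteinases and block it. MMP14 is anchored in the cell membrane, cuts collagen, and together with TIMP2 forms the complex on which the secreted gelatinase MMP2 is activated, so TIMP2 acts there both as inhibitor and as adaptor. ADAM10 and ADAM17 cut the outer parts of membrane proteins such as growth factor precursors, cytokines and adhesion molecules from the cell surface. Urokinase bound to its receptor turns plasminogen into plasmin, which degrades fibrin and matrix, and protease inhibitors of the serpin family, SERPINE2 among them, stop urokinase. Carcinoma cells are known for using these systems when they invade.

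Library totals lay between 38327508 and 42245970 counts. TR11B-KO replicate 2 stood apart, with a scaling factor (TMM, trimmed mean of M values) of 0.7842 where the other libraries had 0.951 to 1.159, so the calls in TR11B-KO were also made without it. OGT mRNA was not lowered in the libraries labelled OGT-KO, with 927, 1255 and 960 counts against 1239, 1143 and 967 in NC (log2 fold change -0.17 ± 0.21 SE, adjusted p = 0.607), while the libraries labelled TR11B-KO had 716, 356 and 484 and were lower than NC (-0.99 ± 0.21, adjusted p = 0.00393). OGT was higher in OGT-KO than in TR11B-KO (log2 0.82, adjusted p = 0.00882). TNFRSF11B had 1, 0 and 0 counts in OGT-KO libraries, 3, 1 and 0 in TR11B-KO libraries and 13, 15 and 3 in NC libraries, too few to test. Group names below are those of the labels. An edited gene can still be transcribed, and whether each group carries the edit that its label names was not tested. The data went against the A549 label in part. Keratins KRT8, KRT18 and KRT7 were abundant, but KRT19 was not. KRT19 averaged at most 0.41 CPM (counts scaled to the library total times its TMM factor) in any group. CDH1 had no count in any library. EPCAM and the detoxifying enzymes ALDH1A1, AKR1B10 and AKR1C1, for which A549 is known, averaged at most 0.0906 CPM in any group. The further listed markers ALDH3A1 and NAPSA averaged at most 0.00793 and 0.144 CPM. CDKN2A, which A549 is known to lack, had 4366 to 9775 counts in knockout libraries and 4173 to 5523 in NC libraries, a gene looked at after its values were seen. Fibroblast and endothelial markers present in the deposited table summed to at most 0.871 and 0.485 CPM in any library, with POSTN and PECAM1 at 0. Leukocyte markers summed to 3.23 to 6.8 CPM, nearly all of it CD68. These sums cover 6 of 10 fibroblast, 4 of 7 endothelial and 5 of 10 leukocyte markers, the others being absent from that table. Of the epithelial and A549-type markers, 11 of 15 were present.

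In OGT-KO against NC, 5 of the 8 tested genes passed the test, edgeR's quasi-likelihood F test with Benjamini-Hochberg adjustment over all tested genes at 0.05. PLAU, ADAM17 and MMP15 rose, PLAUR and TIMP2 fell, and TIMP1, MMP14 and ADAM10 did not pass. Of all tested genes, 18.3% were called in this comparison, 8.26% as higher and 10.1% as lower, which is 1039 and 1264 genes (1369 and 890 when libraries were scaled by their totals alone). The median log2 fold change was 0.16 over the 8 genes and 0.033 over all tested genes. The libraries of the groups did not overlap in CPM for 7 of the 8 genes, against 49.8% of all tested genes. Leaving out NC replicate 1 or NC replicate 2 left 3 members called.

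In TR11B-KO against NC, 4 of the 8 passed and all 4 were higher: TIMP1, TIMP2, MMP14 and MMP15. PLAU, PLAUR, ADAM10 and ADAM17 did not pass. Here 27.6% of all tested genes were called, 13.2% as higher and 14.3% as lower, which is 1666 and 1803 genes (1180 and 2030 by library totals alone). The median log2 fold change was 0.62 over the 8 genes and -0.0097 over all tested genes, and the groups did not overlap for 6 of the 8 genes against 40.9% of all tested genes. Without TR11B-KO replicate 2, 5 of the 8 passed, and 2 passed without NC replicate 1 or without NC replicate 2.

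Set against each other, OGT-KO was higher than TR11B-KO for PLAU and lower for TIMP1, TIMP2, MMP14 and PLAUR, 5 of the 8, in a comparison that called 33.2% of all tested genes. These were 16.7% higher and 16.5% lower (2104 and 2070 genes, or 3084 and 1268 by library totals alone). The median log2 fold change was -0.43 over the 8 and 0.056 over all tested genes. The groups did not overlap for 6 of the 8, against 44.9% of all tested genes, and 7 of the 8 passed without TR11B-KO replicate 2 and 3 without OGT-KO replicate 2. Both comparisons with NC use the same NC libraries, so their values stand side by side and are not independent of each other. In RNA from a whole culture, fewer cells expressing a gene and less RNA per cell cannot be told apart.

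**Figure D1:**
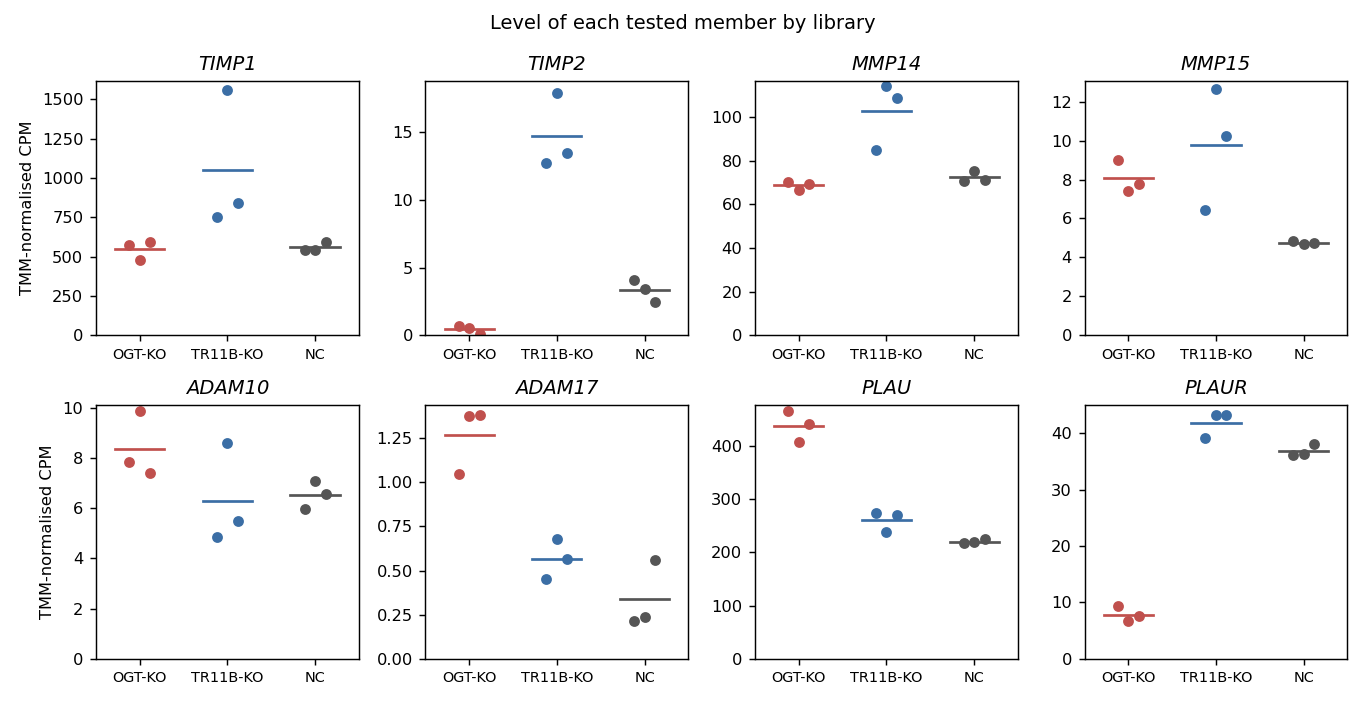
TMM-normalised CPM of the 8 tested genes in every library, points for libraries and lines for group means, with OGT-KO, TR11B-KO and NC from left to right and each vertical axis starting at 0. TIMP2 and PLAUR are lowest in OGT-KO, PLAU and ADAM17 are highest there, and TIMP1 in TR11B-KO replicate 2 stands at 1563 CPM above all other libraries.

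Of the 3 TIMPs, TIMP2 had the largest fold changes. TIMP2 (chromosome 17, 78852977 to 78925387, minus strand, GRCh38.p14, as for all positions here) had 28, 24 and 4 counts in OGT-KO libraries, 536, 555 and 527 in TR11B-KO libraries and 172, 144 and 96 in NC libraries. The 3 groups formed separate ranges, lowest in OGT-KO and highest in TR11B-KO, and OGT-KO replicate 3 was far below its own group. As TMM-normalised CPM these counts averaged 0.424 ± 0.289 in OGT-KO, 14.7 ± 2.78 in TR11B-KO and 3.32 ± 0.831 in NC (SD, n = 3 each). TIMP2 fell 7.73-fold in OGT-KO against NC (log2 fold change -2.95 ± 0.43 SE, adjusted p = 0.000469) and rose 4.43-fold in TR11B-KO against NC (2.15 ± 0.37, adjusted p = 0.00119). OGT-KO was 34.2-fold lower than TR11B-KO (-5.10 ± 0.44, adjusted p = 2.9e-06, and -4.96 without TR11B-KO replicate 2). These calls were kept in all 21 alternatives, and the change in TR11B-KO was 2.02 without replicate 2. On the log2(FPKM + 1) scale, which understates changes of low genes, the values were -0.76 in OGT-KO and 1.28 in TR11B-KO against NC and -2.04 between them, FPKM being the deposited level scaled to gene length and library total. TIMP2 shares 367 exonic bases with AC022966.1 on the opposite strand, a gene that the deposited table does not list. It also shares 198 with CEP295NL on its own strand, which was listed at 0 counts.

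TIMP1, the most abundant of the 9 genes, is secreted by many cell types and also has growth-promoting effects of its own. TIMP1 (chromosome X, 47582436 to 47586789, plus strand) lies within an intron of SYN1 without sharing exonic bases with it. It had 573, 476.6 and 591.2 CPM in OGT-KO libraries, 753, 1563 and 841.7 CPM in TR11B-KO libraries and 541.1, 542.5 and 595.7 CPM in NC libraries. OGT-KO and NC overlapped, while all TR11B-KO libraries lay above both. In TR11B-KO the rise was 1.88-fold (log2 0.91 ± 0.24 SE, adjusted p = 0.0121) against NC. Without replicate 2 of TR11B-KO it was 0.54 on the log2 scale (adjusted p = 0.00237). The call was lost when NC replicate 1 (adjusted p = 0.0545) or NC replicate 2 (0.0549) was left out. It was also lost with replicate number as a block and transcript length as an offset (log2 0.678, adjusted p = 0.0978). The range in all alternatives was 3.18e-05 to 0.0978. OGT-KO did not pass against NC (-0.034, 95% interval -0.54 to 0.47, adjusted p = 0.942), and was 1.92-fold lower than TR11B-KO (log2 -0.945, adjusted p = 0.00811). The latter call was lost without OGT-KO replicate 2 (adjusted p = 0.0526) and with the same block and offset (0.0726), in a range of 1.22e-05 to 0.0726. Without TR11B-KO replicate 2 this difference was -0.57.

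TIMP3, the inhibitor that stays bound to the matrix and also blocks ADAM17, is at chromosome 22, 32801705 to 32863041, plus strand. It was listed at 0 counts in all 9 libraries, which allows up to 3 counts, or 0.0675 to 0.0967 CPM depending on the library (counting error only). No fold change was computed for it.

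Both membrane-type metalloproteinases were higher in TR11B-KO than in NC. MMP14 (chromosome 14, 22836585 to 22847758, plus strand) had 70.33, 66.64 and 69.13 CPM in OGT-KO libraries, 85.1, 114.2 and 109 CPM in TR11B-KO libraries and 70.92, 75.4 and 71.39 CPM in NC libraries. TR11B-KO libraries lay above all others, and OGT-KO libraries lay just below NC without overlap in CPM. In the authors' FPKM, OGT-KO and NC overlapped, at 19.7 to 20.87 and 19.37 to 20.49. The rise in TR11B-KO was 1.42-fold (log2 0.50 ± 0.16 SE, adjusted p = 0.0335). It was 0.45 with adjusted p = 0.0141 without replicate 2, but the call was lost in 14 of 21 alternatives. These included leaving out any OGT-KO library (adjusted p = 0.0603, 0.0522 and 0.0581 without replicates 1, 2 and 3), TR11B-KO replicate 3 (0.103), or any NC library (0.125, 0.0959 and 0.0913), in a range of 0.00215 to 0.125, and the change was 0.32 on the log2(FPKM + 1) scale. OGT-KO did not pass against NC (log2 -0.079, 95% interval -0.43 to 0.27, adjusted p = 0.778). OGT-KO was 1.5-fold lower than TR11B-KO for MMP14 (-0.58 ± 0.16, adjusted p = 0.0141), which was lost without OGT-KO replicate 2 (0.0629) and without TR11B-KO replicate 3 (0.0521), in a range of 0.00101 to 0.0793, and was -0.29 on the log2(FPKM + 1) scale.

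MMP15 is a close relative that is anchored in the membrane too. MMP15 (chromosome 16, 58025754 to 58046901, plus strand) had 9.007, 7.43 and 7.761 CPM in OGT-KO libraries, 6.451, 12.67 and 10.22 CPM in TR11B-KO libraries and 4.827, 4.685 and 4.752 CPM in NC libraries. Every knockout library lay above every NC library, and TR11B-KO spanned the OGT-KO range. MMP15 rose 2.05-fold in TR11B-KO against NC (log2 1.04 ± 0.25 SE, adjusted p = 0.00804), a call kept in all 21 alternatives, at 0.845 without TR11B-KO replicate 2 and 0.515 on the log2(FPKM + 1) scale. It rose 1.7-fold in OGT-KO against NC (0.76 ± 0.25, adjusted p = 0.047), a call lost in 10 of 21 alternatives with adjusted p from 0.000725 to 0.163 over all of them. Leaving out OGT-KO replicates 1, 2 or 3 gave adjusted p = 0.163, 0.0939 and 0.106, leaving out NC replicates 1, 2 or 3 gave 0.137, 0.14 and 0.117, and leaving out TR11B-KO replicate 3 gave 0.0631. OGT-KO and TR11B-KO did not differ by the test (-0.28, 95% interval -0.80 to 0.25, adjusted p = 0.414), with a call of -0.55 (adjusted p = 0.0474) when TR11B-KO replicate 1 was left out.

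RefSeq promoter windows of GRCh38.p14 were found for 8 of the 9 genes, TIMP2 being without one. They were searched on both strands over the 250 bases before the start for an AP-1 site (TGANTCA), a GC box (GGGCGG) and a TATA box (TATAAA). All promoters of the table held these in 6.57%, 42.6% and 10.7% of windows. MMP15 had 5 GC box matches, and the 30 bases 86 to 57 upstream of its start, shown because they hold the closest pair, are at chr16:58025668-58025697, plus strand, with the matches (on the opposite strand) in capitals.
MMP15: ctggggcaCCGCCCccggtccCCGCCCggg
No TATAAA was found in the window of any of the 8 genes, and TIMP1, TIMP3, MMP14, ADAM10 and ADAM17 held 1 to 5 GC boxes and no AP-1 match. A match is a description of the letters and not a shown binding site. Annotated exons, of any gene and strand, covered all 250 bases of the PLAUR and ADAM10 windows and of both PLAU windows. They covered 204 bases for ADAM17, 188 for MMP15, 123 for TIMP1, 28 for MMP14 and 4 for TIMP3.

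Of the 2 sheddases, ADAM17 changed in OGT-KO and ADAM10 did not pass in any comparison. ADAM17 (chromosome 2, 9488486 to 9555830, minus strand), the enzyme that releases TNF and several EGF receptor ligands, had 46, 61 and 58 counts in OGT-KO libraries, 19, 21 and 22 in TR11B-KO libraries and 9, 10 and 22 in NC libraries. All OGT-KO libraries lay above the others, while NC replicate 3 reached the TR11B-KO level. ADAM17 rose 3.75-fold in OGT-KO against NC (log2 1.91 ± 0.46 SE, adjusted p = 0.0109). The call was lost without NC replicate 1 (adjusted p = 0.0602) or NC replicate 2 (0.0575), in a range of 0.000914 to 0.0602, and on the log2(FPKM + 1) scale without a filter the change was 0.20. TR11B-KO did not pass against NC (0.74, 95% interval -0.27 to 1.74, adjusted p = 0.263, and 0.62 without its replicate 2). OGT-KO against TR11B-KO gave 1.17 ± 0.44 (adjusted p = 0.0537), which passed in 6 alternatives, among them those without TR11B-KO replicate 2 (0.0449) and without NC replicate 3 (0.0361), in a range of 0.0118 to 0.219.

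ADAM17 shares 1323 exonic bases with IAH1, which lies on the opposite strand. The sources used here do not say whether the counting used strand, so reads in that stretch cannot be told apart. Summed over all libraries, IAH1 had 2535 counts and ADAM17 268. IAH1 had 229, 243 and 168 counts in OGT-KO libraries, 227, 38 and 195 in TR11B-KO libraries and 487, 528 and 420 in NC libraries, and it was lower than NC in OGT-KO (log2 -1.24, adjusted p = 0.0347) and in TR11B-KO (-1.57, adjusted p = 0.00861). In OGT-KO it moved in the direction opposite to ADAM17, which did not pass in TR11B-KO.

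ADAM10 (chromosome 15, 58588809 to 58749707, minus strand), the main sheddase of Notch receptors and cadherins, had 7.847, 9.862 and 7.38 CPM in OGT-KO libraries, 4.832, 8.577 and 5.481 CPM in TR11B-KO libraries and 5.95, 7.063 and 6.567 CPM in NC libraries. OGT-KO lay above NC without overlap, and TR11B-KO spanned NC. ADAM10 shares 136 exonic bases with AC018904.1 on the opposite strand, a gene that the deposited table does not list. The log2 fold change was 0.36 in OGT-KO against NC (95% interval -0.17 to 0.89, adjusted p = 0.334) and -0.055 in TR11B-KO against NC (-0.59 to 0.48, adjusted p = 0.891). Transcript length moved with the fold changes of TR11B-KO: over all 12574 genes Spearman's rho between length and log2 fold change was -0.313 for TR11B-KO against NC, 0.066 for OGT-KO against NC and 0.333 for OGT-KO against TR11B-KO. ADAM10 is the longest of the tested members at 11330 bases and TIMP1 the shortest at 1841, where the median tested gene had 3965. With length as an offset, the ADAM10 value in TR11B-KO against NC was 0.28 and that in OGT-KO against TR11B-KO -0.14, while TIMP1 in TR11B-KO against NC was 0.73 (adjusted p = 0.0498). OGT-KO against TR11B-KO gave 0.41 for ADAM10 (adjusted p = 0.216), and 0.67 (adjusted p = 0.0167) without TR11B-KO replicate 2, in a range of 0.0167 to 0.795.

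The urokinase pair moved in opposite directions in OGT-KO. PLAUR (chromosome 19, 43646095 to 43670169, minus strand), the receptor that holds urokinase at the cell surface, had 9.28, 6.687 and 7.57 CPM in OGT-KO libraries, 39.06, 43.21 and 43.13 CPM in TR11B-KO libraries and 36.13, 36.32 and 38.07 CPM in NC libraries. Every OGT-KO library lay far below every other library, and TR11B-KO lay slightly above NC in CPM. In the authors' FPKM, TR11B-KO replicate 2 was below NC, at 10.78 against 11.62 to 12.24. PLAUR fell 4.69-fold in OGT-KO against NC (log2 -2.23 ± 0.19 SE, adjusted p = 7.45e-06) and was 5.33-fold lower in OGT-KO than in TR11B-KO (-2.41 ± 0.19, adjusted p = 1.19e-06), both calls kept in all 21 alternatives. TR11B-KO did not pass against NC (0.18, 95% interval -0.20 to 0.56, adjusted p = 0.476, and 0.19 without its replicate 2).

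PLAU (chromosome 10, 73908832 to 73917494, plus strand), which encodes the secreted protease urokinase itself, had 465.6, 407.5 and 440.9 CPM in OGT-KO libraries, 273.6, 238.3 and 271 CPM in TR11B-KO libraries and 217.9, 219.2 and 224.7 CPM in NC libraries. OGT-KO libraries were highest without overlap. PLAU rose 1.99-fold in OGT-KO against NC (log2 0.99 ± 0.15 SE, adjusted p = 0.00075) and was 1.68-fold higher than in TR11B-KO (0.75 ± 0.15, adjusted p = 0.00235), both kept in all 21 alternatives. TR11B-KO against NC gave 0.24 (95% interval -0.082 to 0.57, adjusted p = 0.253), and 0.335 with adjusted p = 0.0491 without replicate 2, in a range of 0.0491 to 0.758. In that replicate PLAU was above NC in TMM-normalised CPM but below it in the authors' FPKM, at 67.4 against 79.44 to 81.94 in NC.

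PLAU shares 916 exonic bases with C10orf55 on the opposite strand. C10orf55 had 65, 92 and 60 counts in OGT-KO libraries, 97, 78 and 68 in TR11B-KO libraries and 38, 29 and 35 in NC libraries, and it was higher in both knockouts than in NC (log2 1.00, adjusted p = 0.0379 in OGT-KO, and 1.40, adjusted p = 0.00526 in TR11B-KO). Summed over all libraries, C10orf55 had 562 counts and PLAU 113782. How reads of the shared stretch were assigned was not tested.

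The promoters of this pair are shown because the genes moved apart in OGT-KO. The 30 bases 194 to 165 upstream of the PLAUR start are at chr19:43670334-43670363, minus strand, and hold the AP-1 match, the only such match among the 8 genes. The 30 bases 74 to 45 upstream of a PLAU start are at chr10:73911058-73911087, plus strand, and hold 2 of the 3 GC boxes of that window. Both PLAU windows lie inside the PLAU span given above, so their starts are internal to the gene. Matches are in capitals in both stretches.
PLAUR: caactccaTGAGTCAgggccgagccagccc
PLAU: agggagccGGGCGGgagagggagGGGCGGc
PLAUR had no GC box in its window, and the other PLAU window had none of the 3 motifs.

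**Figure D2:**
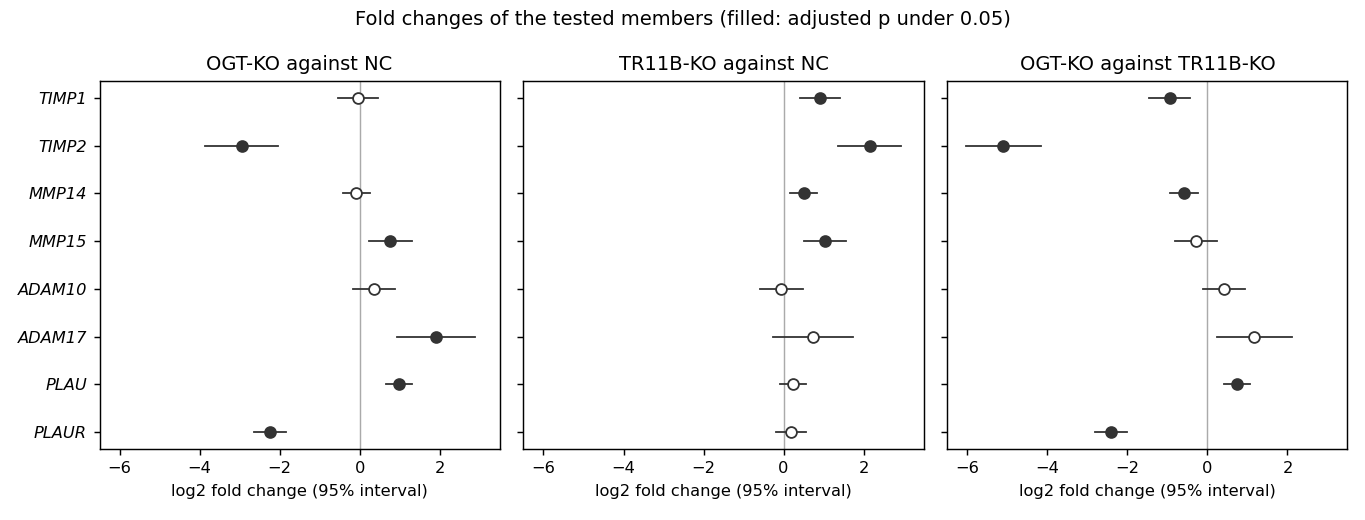
Log2 fold changes of the 8 tested genes in the 3 comparisons, with 95% intervals as bars and filled points for adjusted p under 0.05 (edgeR). TIMP2 lies at -2.95 in OGT-KO and 2.15 in TR11B-KO against NC, and the PLAUR value of -2.23 in OGT-KO stands beside 0.18 in TR11B-KO.

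Levels between genes were compared in FPKM, which accounts for length. In OGT-KO libraries the order was TIMP1 (mean 323 FPKM), PLAU (172), MMP14 (20.3), PLAUR (2.72), MMP15 (2.16), ADAM10 (0.811), ADAM17 (0.208) and TIMP2 (0.128). In TR11B-KO it was TIMP1 (503), PLAU (86.4), MMP14 (25.1), PLAUR (12.1), TIMP2 (3.62), MMP15 (2.14), ADAM10 (0.494) and ADAM17 (0.0759), and in NC TIMP1 (307), PLAU (80.3), MMP14 (19.8), PLAUR (11.8), MMP15 (1.18), TIMP2 (0.917), ADAM10 (0.581) and ADAM17 (0.0511). The first 3 places were the same in every group, and TIMP2 held the last tested place in OGT-KO and the fifth in TR11B-KO. Of neighbours in these orders, only ADAM17 and TIMP2 in OGT-KO had overlapping libraries.

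Ratios within a library do not depend on its scaling. The FPKM of PLAU was 56.9, 69.1 and 66 times that of PLAUR in OGT-KO libraries, 7.94, 6.25 and 7.12 times in TR11B-KO libraries and 6.84, 6.84 and 6.69 times in NC libraries. OGT-KO was apart from both other groups, and the exact two-sided permutation test gave p = 0.1 against each, the smallest that 3 against 3 allows, and p = 0.7 for TR11B-KO against NC. The TIMP2 to MMP14 ratio was 0.00918, 0.00822 and 0.0014 in OGT-KO libraries, 0.152, 0.159 and 0.125 in TR11B-KO libraries and 0.0587, 0.0456 and 0.0348 in NC libraries, so the 3 groups did not overlap (exact permutation p = 0.1 for each pair). MMP2, the gelatinase that this pair activates, had no count in OGT-KO libraries, 6, 7 and 4 in TR11B-KO libraries and 1, 22 and 0 in NC libraries, too few to test. The TIMP1 to MMP14 ratio was 14.4 to 17.2 in OGT-KO, 15.5 to 27.5 in TR11B-KO and 14.5 to 16.8 in NC, and the groups overlapped.

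The balance between related enzymes was compared in the same way. MMP14 exceeded MMP15 by 8.57, 9.84 and 9.78 times in OGT-KO libraries, 14.5, 9.89 and 11.7 times in TR11B-KO libraries and 16.1, 17.7 and 16.5 times in NC libraries, with both knockouts below NC (exact permutation p = 0.1 for each). ADAM10 exceeded ADAM17 by 4.42, 4.23 and 3.15 times in OGT-KO libraries, 6.29, 7.46 and 5.73 times in TR11B-KO libraries and 16.3, 17.7 and 6.88 times in NC libraries. OGT-KO did not overlap NC for this ratio, whereas TR11B-KO overlapped it through NC replicate 3 (exact permutation p = 0.1 and p = 0.2).

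**Figure D3:**
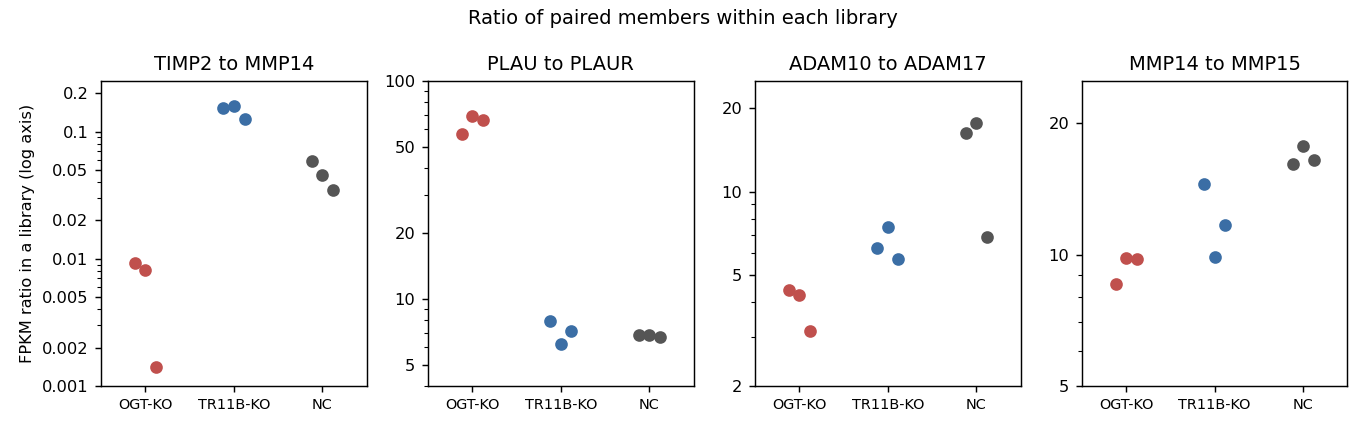
FPKM ratio of 4 gene pairs in each library on log axes, 1 point per library, with OGT-KO, TR11B-KO and NC from left to right. PLAU to PLAUR is 56.9 to 69.1 in OGT-KO and 6.25 to 7.94 in the other 6 libraries, and TIMP2 to MMP14 falls into 3 separate ranges.

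Genes within 1 Mb of a member were examined to see whether whole stretches moved. Around TIMP2, 22 tested genes had a median log2 fold change of -0.33 in OGT-KO against NC, with 1 higher and 5 lower, and 0.038 in TR11B-KO against NC, with 1 higher and 4 lower, and none moved as far as TIMP2 in its direction in either. Around PLAUR, 32 tested genes had a median of -0.27 in OGT-KO against NC, with none higher and 6 lower, and none was as low as PLAUR. Around ADAM17, 16 tested genes had a median of 0.105 in OGT-KO against NC, with 1 higher and 2 lower, and none was as high as ADAM17. The other tested members had neighbours that moved at least as far in their direction in OGT-KO against NC. These were 2 of 23 for PLAU, 3 of 24 for MMP15, 4 of 9 for ADAM10, 12 of 25 for TIMP1 and 15 of 27 for MMP14. In TR11B-KO against NC, 22 of the 32 genes around PLAUR were at least as high as PLAUR. Of all tested genes, 18.3% were called in OGT-KO against NC and 27.6% in TR11B-KO against NC.

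For the 2 members with the smallest adjusted p in each knockout against NC (PLAUR and TIMP2 in OGT-KO, TIMP2 and MMP15 in TR11B-KO), the genes with the most similar profile were sought among 7020 genes by Pearson's r of log2 CPM over the 9 libraries, whose 3 groups and shared depth enter every r. PLAUR was most like SMO (r = 0.997), SPATC1L (0.991) and WNT5B (0.989), whose log2 fold changes in OGT-KO against NC were -4.81, -9.20 and -1.60. SMO is the Hedgehog signal transducer and WNT5B a secreted Wnt ligand. TIMP2 was most like SNRNP35 (0.976), KCNK6 (0.973) and IFT27 (0.968), and IFT27, a component of the transport machinery of cilia, had -1.42 in OGT-KO and 1.98 in TR11B-KO against NC. MMP15 was most like RNASEH2C (0.970), TRIM41 (0.966) and PBXIP1 (0.966), with changes of 0.42 to 0.52 in OGT-KO and 0.73 to 0.87 in TR11B-KO.

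Other genes of these pathways were read from lists that hold the members too. The counts of each list stand beside the 18.3% of all tested genes called in OGT-KO against NC and the 27.6% called in TR11B-KO against NC, and the list medians beside the medians of all genes, 0.033 and -0.0097. Without TR11B-KO replicate 2 the shares of all genes were 35.4% and 34.2%. Of 5 tested inhibitors, none rose and 1 fell (TIMP2) in OGT-KO against NC, and 3 rose and none fell in TR11B-KO against NC, with list medians of -0.84 and 0.91 on the log2 scale (none and 1, and 4 and none, without TR11B-KO replicate 2). The third gene that rose in TR11B-KO was SPOCK1, a testican proteoglycan, named after its values were seen, with 0, 0 and 0 counts in OGT-KO libraries, 104, 66 and 95 in TR11B-KO libraries and 1 count in each NC library. TFPI2 and RECK, the other tested inhibitors, did not pass against NC. Without TR11B-KO replicate 2, TFPI2 passed as higher in TR11B-KO (log2 0.914, adjusted p = 1.46e-05). Of 6 tested membrane-type metalloproteinases, 1 rose and 1 fell in OGT-KO, and 3 rose and none fell in TR11B-KO. MMP17, a glycolipid-anchored member, had 7.98, 5.83 and 6.38 CPM in OGT-KO libraries, 29.1, 72.8 and 40.7 CPM in TR11B-KO libraries and 26, 21.9 and 22.2 CPM in NC libraries. It fell in OGT-KO (log2 -1.79 ± 0.29 SE, adjusted p = 0.000927) and rose in TR11B-KO (1.03 ± 0.28, adjusted p = 0.015, and 0.62 with adjusted p = 0.00867 without replicate 2), the directions of TIMP2. Of 16 secreted metalloproteinases, 2 were tested, and MMP11 passed as higher in TR11B-KO (1.35, adjusted p = 0.0474, named after its values were seen), a call lost without TR11B-KO replicate 2 (1.25, adjusted p = 0.0593).

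Of 12 tested ADAM and ADAMTS proteases, 2 rose and 3 fell in each knockout against NC. The 3 that fell in OGT-KO were ADAM19 (log2 -3.47), ADAMTS10 (-5.16) and ADAMTS15 (-3.48), each with a mean log2 CPM below 1. ADAM9, a further membrane sheddase, rose in OGT-KO (log2 0.70, adjusted p = 0.0335) and fell in TR11B-KO (-0.75, adjusted p = 0.0194). ADAMTS7, which degrades cartilage matrix protein COMP, rose in TR11B-KO (1.5, adjusted p = 0.00526) and ADAMTS1, a versican-cutting protease, fell there (-0.74, adjusted p = 0.0113). Among 15 tested genes for maturation and trafficking of these proteases, none rose and 3 fell in OGT-KO, and 1 rose and 1 fell in TR11B-KO, shares near and below those of all genes. TSPAN14, a tetraspanin that escorts ADAM10 to the cell surface, fell in OGT-KO (-0.64, adjusted p = 0.0228) and in TR11B-KO (-1.31, adjusted p = 0.000335). TSPAN15, another tetraspanin of this list, had 1, 0 and 0 counts in OGT-KO, 71, 128 and 70 in TR11B-KO and 12, 21 and 17 in NC libraries. It fell in OGT-KO (-5.25, adjusted p = 0.00114) and was the gene that rose in TR11B-KO (2.63, adjusted p = 0.00153). The proprotein convertase PCSK7 fell in OGT-KO (-0.64, adjusted p = 0.0137), and passed in TR11B-KO when replicate 2 was left out (-0.42, adjusted p = 0.0261).

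Of 21 tested substrates of the sheddases, 4 rose and 3 fell in OGT-KO against NC, and 2 rose and 6 fell in TR11B-KO against NC, with list medians of -0.072 and -0.16. TNF, the cytokine that gave ADAM17 its older name TACE, had 108, 94.1 and 110 CPM in OGT-KO libraries, 59, 92.2 and 68.6 CPM in TR11B-KO libraries and 41.9, 47.5 and 47.2 CPM in NC libraries, and it rose in both (log2 1.19, adjusted p = 0.000816 in OGT-KO, and 0.69, adjusted p = 0.0146 in TR11B-KO). The N-cadherin gene CDH2 rose in OGT-KO (1.74, adjusted p = 0.000221). L1CAM, an adhesion molecule, and MET, the receptor of hepatocyte growth factor, were higher in OGT-KO (1.09, adjusted p = 0.00501, and 1.01, adjusted p = 0.00424) and lower in TR11B-KO (-2.40, adjusted p = 4.78e-05, and -0.81, adjusted p = 0.0109). TGFA, an EGF receptor ligand, fell in TR11B-KO (-1.41, adjusted p = 0.002).

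Of 10 tested genes of plasminogen activation, 1 rose (PLAU) and 2 fell in OGT-KO against NC (PLAUR and SERPINE2), and none rose and 1 fell in TR11B-KO against NC (SERPINE2), with list medians of 0.092 and 0.125. SERPINE2, protease nexin 1, had 11.3, 10.8 and 7.86 CPM in OGT-KO libraries, 8.5, 4.8 and 8.96 CPM in TR11B-KO libraries and 18.9, 16.4 and 16 CPM in NC libraries. All knockout libraries lay below all NC libraries, and the knockouts overlapped each other. It fell in OGT-KO (log2 -0.78 ± 0.25 SE, adjusted p = 0.0456) and in TR11B-KO (-1.2 ± 0.26, adjusted p = 0.00398). The tissue activator PLAT had at most 22 counts in any library and did not pass.

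Of 11 tested partners of the urokinase receptor, 3 rose and 3 fell in OGT-KO against NC, and none rose and 7 fell in TR11B-KO against NC, with list medians of 0.28 and -0.67 (none rose and 8 fell without TR11B-KO replicate 2). Over all tested genes, longer transcripts tended to be lower in TR11B-KO against NC (Spearman's rho -0.313). The values of this and the other lists are without the length offset, and the part of length in them was not tested. MRC2, the collagen receptor that binds urokinase with its receptor, had 69.9, 70.1 and 69.3 CPM in OGT-KO libraries, 165, 189 and 219 CPM in TR11B-KO libraries and 178, 191 and 184 CPM in NC libraries, and fell in OGT-KO (log2 -1.40 ± 0.16 SE, adjusted p = 7.99e-05). The fibronectin receptor subunit ITGA5 fell in OGT-KO (-1.38, adjusted p = 0.00104) and in TR11B-KO (-0.71, adjusted p = 0.0295). EGFR, ITGB3 and CAV1, the genes of the EGF receptor, the beta-3 integrin and caveolin-1, rose in OGT-KO (1.06, 1.23 and 0.73) and fell in TR11B-KO (-1.04, -1.19 and -0.67), with adjusted p from 0.00152 to 0.0142. Without TR11B-KO replicate 2, an alternative chosen after seeing the data, the TR11B-KO values were -1.03, -0.86 and -0.525, and MMP11 lost its call while the other genes named as changed in TR11B-KO kept theirs.

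**Figure D4:**
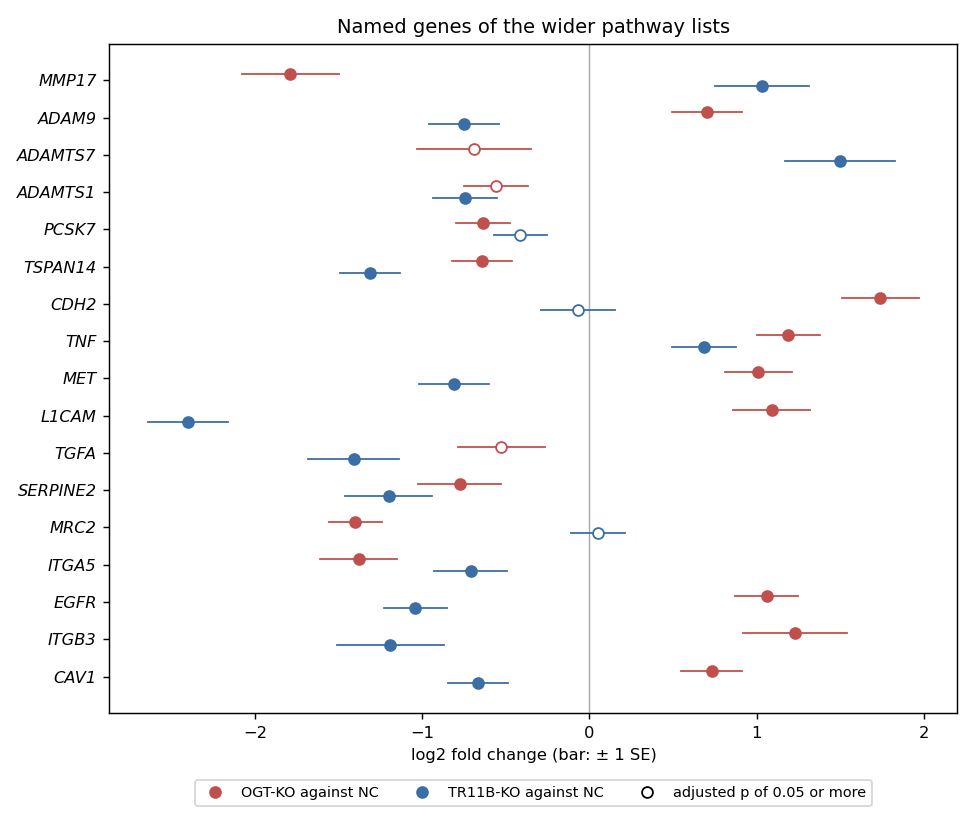
Log2 fold changes with bars of 1 SE for the named genes of the wider lists, OGT-KO against NC in red above TR11B-KO against NC in blue, open points marking adjusted p of 0.05 or more (edgeR). MMP17 lies at -1.79 in OGT-KO and 1.03 in TR11B-KO, and EGFR, ITGB3, CAV1, MET and L1CAM lie to the right of 0 in OGT-KO and to the left in TR11B-KO.

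**Figure D5:**
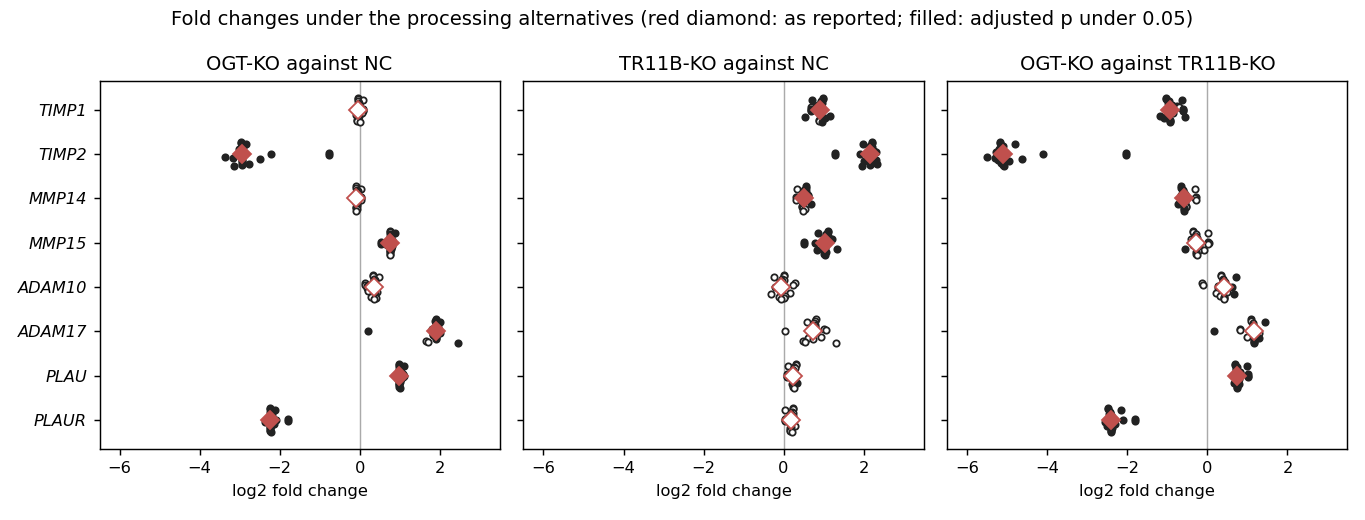
Log2 fold changes of the 8 tested genes as reported (red diamonds) and under the processing alternatives (small points), filled where the adjusted p was under 0.05. PLAUR and PLAU in OGT-KO against NC stay filled in all, and the MMP14 points in TR11B-KO against NC are mostly open.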

How the data were processed

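Counts of 9 libraries were deposited by the authors as whole-number reads per gene without normalization, and FPKM values were deposited beside them. The submitters' processing notes name DESeq2, fastp, HTSeq, HISAT and R 3.2.0, and GRCh38 as build. The sources used here give neither their settings nor whether strand was used. Sample titles gave the groups and name biological replicates, but no label names separate cultures, so p-values measure only the spread between these samples.

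The counts were tested in R 4.3.3 with edgeR 4.0.16, by filterByExpr, TMM factors and the robust quasi-likelihood F test over all 9 libraries, with Benjamini-Hochberg adjustment over 12574 genes. SE is the size of the log2 fold change over the square root of F, and the biological coefficient of variation was 0.241. Alternatives were 21, with DESeq2 1.42.0 and limma 3.58.1 among them. The test was checked on simulated data. Members and gene lists were chosen with earlier results of these data known. Genes beyond the 9 were named by a rule: of each list, up to 3 per comparison with the smallest adjusted p, called and with a mean log2 CPM of at least 1, not all of which are named, and 1 gene of the lists is not reported here. SPOCK1, MMP11, TFPI2, RECK, PLAT, MMP2, TSPAN15, ADAM19, ADAMTS10, ADAMTS15, CDKN2A, IAH1 and C10orf55 are named outside this rule, after their values were seen. Similar profiles were sought at a mean log2 CPM of at least 2. RefSeq and GENCODE annotation gave positions and overlaps.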

Additional observations from a re-analysis of the deposited data

How the results depend on the processing

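Of 498 alternative values for the 24 fold changes, 425 kept their direction and side of the threshold, 37 lost a call, 12 gained one, and 24 changed sign; none of those 24 was a called value, and the cause was not tested. TIMP1 in OGT-KO against NC was 0.0756 with library totals alone, 0.0749 and 0.0751 in limma on log2(FPKM + 1) and log2(FPKM + 0.1), 0.0749 without the filter, and -0.0938 to 0.055 when 1 library was left out. MMP14 in OGT-KO against NC was 0.0347, 0.033, 0.0345 and 0.033 under the same 4 settings. ADAM10 in TR11B-KO against NC was 0.0151 by DESeq2, 0.0156 with RLE factors, 0.00601 with the filter of CPM at least 1 in 3 libraries, 0.276 with the length offset, 0.239 with replicate block and length offset, and -0.307 to 0.166 when 1 library was left out. MMP15 in OGT-KO against TR11B-KO was 0.0149 with library totals alone and 0.0204, 0.0353 and 0.0204 in limma. ADAM10 in OGT-KO against TR11B-KO was -0.144 with the length offset and -0.106 with the block added.

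Same-numbered libraries correlated at -0.199 to 0.0687 after removing group means, so the numbers were not taken to pair samples. Only OGT-KO replicates 2 and 3, set against NC, correlated best with the same number. With the replicate block, 4, 3 and 5 members were called in OGT-KO against NC, TR11B-KO against NC and OGT-KO against TR11B-KO, and block and length offset together called 2 in TR11B-KO against NC. Leaving out 1 library called 3 to 5, 2 to 5 and 3 to 7 members. ADAM17 could not be tested in limma with the filter of FPKM at least 0.5 in 3 libraries. Over all genes, OGT-KO against NC called 2303, but 5095 with only its 2 groups, 1162, 1170 and 1249 without OGT-KO replicates 1, 2 and 3, 1072, 1169 and 1447 without NC replicates 1, 2 and 3, and 4536 without TR11B-KO replicate 2. The TR11B-KO comparison with NC called 3469, but 2251 with only its 2 groups, 1980 with block and length offset, and 1866 and 1813 without NC replicates 1 and 2. OGT-KO against TR11B-KO called 4174, and 2401 without OGT-KO replicate 2. In limma on log2(FPKM + 1), which keeps library totals as the scale, the calls were 1205 higher and 828 lower, 1138 and 1952, and 2392 and 1086. Library totals alone shifted the median of all genes to 0.147, -0.152 and 0.314, against 0.0325, -0.00974 and 0.0563. Depth limits ADAM17, with 9 to 61 counts, and TIMP2 in OGT-KO, with 4 to 28.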
